A study of Homo sapiens with 24 samples.

Results

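The transcriptomes compared here are those of SKBr3 cells held for 7 days under an inhibitor of fatty acid synthase (FASN), TVB-3166, or under an inhibitor of acetyl-CoA carboxylase (ACC), ND-646. The members were chosen by treatment label, and they are 6 of the 24 libraries of the series, 3 for each inhibitor, read over all genes of the count table. SKBr3 is a human breast cancer cell line with amplification of ERBB2, the gene of the HER2 receptor, and with high lipogenic activity. Both inhibitors were given at 250 nmol/L with a renewal of the medium on day 3, and RNA was taken on day 7. Untreated SKBr3 cells, harvested on day 0 while proliferating or kept for 7 days, give the level without inhibitor (3 libraries each). No vehicle-treated group is named in the labels, so solvent and compound cannot be told apart in any comparison with untreated cells, whereas both inhibitor groups share every labelled condition except the compound. One cell line was used, 1 dose of each inhibitor was sequenced, and no label says that the replicates came from separate cultures, so p-values measure the spread between these libraries, which may be technical. The libraries are from bulk RNA, in which fewer cells of a type and less RNA per cell cannot be told apart. The question is where inhibiting the last enzyme of palmitate synthesis left a transcriptome that differed from that left by inhibiting the step before it. The compounds were matched by concentration, and whether each inhibited its target to the same degree was not tested. Target and depth of inhibition therefore cannot be told apart in the comparison of the inhibitors.

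ACC carboxylates acetyl-CoA to malonyl-CoA, and FASN then uses malonyl-CoA as the donor of carbon units to build palmitate. Block of ACC therefore deprives the cell of malonyl-CoA as well as palmitate, while block of FASN leaves malonyl-CoA without its main consumer. Malonyl-CoA is known as an inhibitor of carnitine palmitoyltransferase, which admits fatty acids to the mitochondrion, and as the substrate of fatty acid elongation. The enzymes of fatty acid synthesis are under transcriptional control of the sterol regulatory element-binding proteins (SREBPs), which respond to the lipid content of the endoplasmic reticulum.

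Total counts ran from 29405121 to 31455795 across the 6 libraries. One library stood apart. ND-646 replicate 1 lay 79.6 and 83.0 units of Euclidean distance (log2 CPM over 13662 genes) from the other ND-646 libraries, which lay 37.9 apart, and the TVB-3166 libraries lay 36.4 to 41.6 apart. Its TMM scaling factor was 0.851, against 1.01 to 1.08 in the other 5. Values without it are given beside the results that turn on it. All 12 markers of luminal cells and of the HER2 amplicon were present, and none was called different in the 6 libraries. Without ND-646 replicate 1, 4 (GRB7, KRT8, GATA3 and SPDEF) were called higher under TVB-3166. These were 33.3% of the list, against 6.01% of all genes in that fit. ERBB2 read 8309, 6166 and 7011 CPM (counts of a gene per 1000000 counts of its library) under ND-646 and 8518, 7263 and 8258 CPM under TVB-3166. Of 14 fibroblast, leukocyte and endothelial markers, 10 are not listed in the table and 3 passed the filter on low counts. CD68, a lysosomal protein of macrophages that other cells also make, read 53.1, 42.2 and 40.4 CPM under ND-646 and 24.7, 28.7 and 29.4 CPM under TVB-3166 (adjusted p = 0.078, and 0.00668 without ND-646 replicate 1). CDH5, of endothelium, and COL1A1, of fibroblasts, were not called (adjusted p = 0.347 and 0.828). Values are given throughout in the order of replicates 1, 2 and 3, and CPM are TMM-scaled over the 6 inhibitor and 6 untreated libraries. Log2 fold-changes are TVB-3166 relative to ND-646 unless another pair is named. Their standard error (SE) was derived from the test, as the absolute log2 fold-change divided by the square root of its F statistic.

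Mitotic, interferon-induced and xenobiotic-response genes recur in the results, and the sequences just upstream of 5 of them are shown because each holds the short motif for which its group is known. They are the 250 bases before the start site in RefSeq, GRCh38.p14, written 5′ to 3′ on the strand of the gene, with motif letters in capitals. BUB1B (chr15:40160819-40161068, plus strand), SMC4 (chr3:160399400-160399649, plus strand) and DLGAP5 (chr14:55191586-55191835, minus strand) encode proteins of mitosis, and the capitals mark TTTGAA or its complement, the cell-cycle homology region. IFI6 (chr1:27672193-27672442, minus strand) is an interferon-induced gene, and the capitals mark TTTC, any 2 bases and TTTC, or its complement, the core of the interferon-stimulated response element. CYP1A1 (chr15:74725529-74725778, minus strand) encodes a xenobiotic-oxidising cytochrome P450, and the capitals mark GCGTG, the core of the dioxin response element.
BUB1B: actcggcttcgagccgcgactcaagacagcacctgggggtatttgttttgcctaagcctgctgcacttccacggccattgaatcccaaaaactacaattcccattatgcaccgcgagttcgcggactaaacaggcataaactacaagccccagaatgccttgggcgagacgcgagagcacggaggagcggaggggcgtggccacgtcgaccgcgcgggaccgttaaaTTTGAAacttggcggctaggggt
SMC4: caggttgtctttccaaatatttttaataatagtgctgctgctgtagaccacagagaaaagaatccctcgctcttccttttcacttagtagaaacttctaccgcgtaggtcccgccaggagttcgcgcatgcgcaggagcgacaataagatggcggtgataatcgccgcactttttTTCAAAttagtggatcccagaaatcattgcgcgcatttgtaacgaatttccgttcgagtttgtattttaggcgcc
DLGAP5: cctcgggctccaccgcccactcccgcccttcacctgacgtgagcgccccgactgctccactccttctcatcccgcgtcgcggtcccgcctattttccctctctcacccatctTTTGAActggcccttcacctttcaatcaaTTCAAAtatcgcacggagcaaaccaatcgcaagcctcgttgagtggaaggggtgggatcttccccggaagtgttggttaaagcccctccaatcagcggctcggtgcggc
IFI6: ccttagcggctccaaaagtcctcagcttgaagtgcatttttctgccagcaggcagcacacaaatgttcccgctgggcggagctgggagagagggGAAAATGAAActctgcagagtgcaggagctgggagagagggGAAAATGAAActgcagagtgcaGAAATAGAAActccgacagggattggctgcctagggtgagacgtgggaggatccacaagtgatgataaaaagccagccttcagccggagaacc
CYP1A1: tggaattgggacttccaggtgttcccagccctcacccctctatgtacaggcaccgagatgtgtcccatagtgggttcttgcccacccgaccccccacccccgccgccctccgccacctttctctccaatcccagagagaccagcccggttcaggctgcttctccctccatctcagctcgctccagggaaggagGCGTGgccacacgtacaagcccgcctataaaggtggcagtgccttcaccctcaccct

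Over the window from 250 bases before to 50 bases after the start, read on both strands, TTTGAA was found in 16 of 32 promoters of the spindle and mitotic kinase list and in 1002 of 10570 (9.48%) promoters of the genes tested. Among the genes called higher under TVB-3166 it was found in 22 of 58 (37.9%), and among those called lower in 2 of 24 (8.33%). The interferon response core stood in 13 of 20 (65.0%) promoters of the interferon-stimulated list, against 280 of 10570 (2.65%) of those tested. GCGTG is common: 5407 of 10570 (51.2%) of the promoters of genes tested held it, as did 4 of 6 (66.7%) of the aryl hydrocarbon receptor list and 12 of 24 of the genes called lower. TCACNCCAC, a sterol response core, was found in none of the promoters of the mevalonate and sterol lists within this window (7 and 9 promoters) and in 110 of 10570 (1.04%) of those tested. Of all 35116 promoters of the table, 15.2% held TTTGAA, 3.57% the interferon response core, 36.5% GCGTG and 1.13% TCACNCCAC. A match is a match of letters and not a site in use, and TTTGAA can share letters with the interferon core read on the other strand.

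At the threshold used in the study's own comparisons, a fold-change of at least 2 with raw p under 0.05, 291 of 13662 genes (2.13%) were higher under TVB-3166 than under ND-646 and 138 (1.01%) were lower. At an adjusted p under 0.05 (edgeR quasi-likelihood test, Benjamini-Hochberg), 71 genes (0.52%) were higher and 27 (0.198%) lower, and these are the genes said below to be called. With the replicate number as a block the numbers called were 222 (1.62%) and 88 (0.644%), and without ND-646 replicate 1 they were 829 (6.01%) and 689 (5%) of 13792 genes. All 98 called genes kept their direction under both. The percentages here are shares over all genes, against which list counts from the same fits below are to be read. Without any one of the other 5 libraries no gene passed, with 1194 to 2230 genes at an unadjusted p under 0.05 in the same test. In 1707 genes (12.5%) every TVB-3166 library lay above every ND-646 library and in 1593 (11.7%) every one lay below, and all 98 called genes are among these.

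Set beside untreated day-7 cells, most called genes lay on the same side under both inhibitors, and further from untreated under ND-646. Of the 71 genes higher under TVB-3166, 56 had means below untreated day 7 under both inhibitors, 11 were below it under ND-646 and above it under TVB-3166, and 4 were above it under both. Of the 27 genes lower under TVB-3166, 23 were above untreated day 7 under both inhibitors and 4 were above it under ND-646 and below it under TVB-3166. For the genes called with the replicate block the corresponding numbers were 149 of 222 below under both and 73 of 88 above under both. For those called without ND-646 replicate 1 they were 549 of 829 and 525 of 689. The means were those of all 3 libraries in each case, so ND-646 replicate 1 is still part of them. Both inhibitors are compared here with the same 3 untreated libraries, so the 2 sets of fold-changes share that reference. Whether the greater distance from untreated cells under ND-646 went with a deeper inhibition of its target was not tested.

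**Figure D1:**
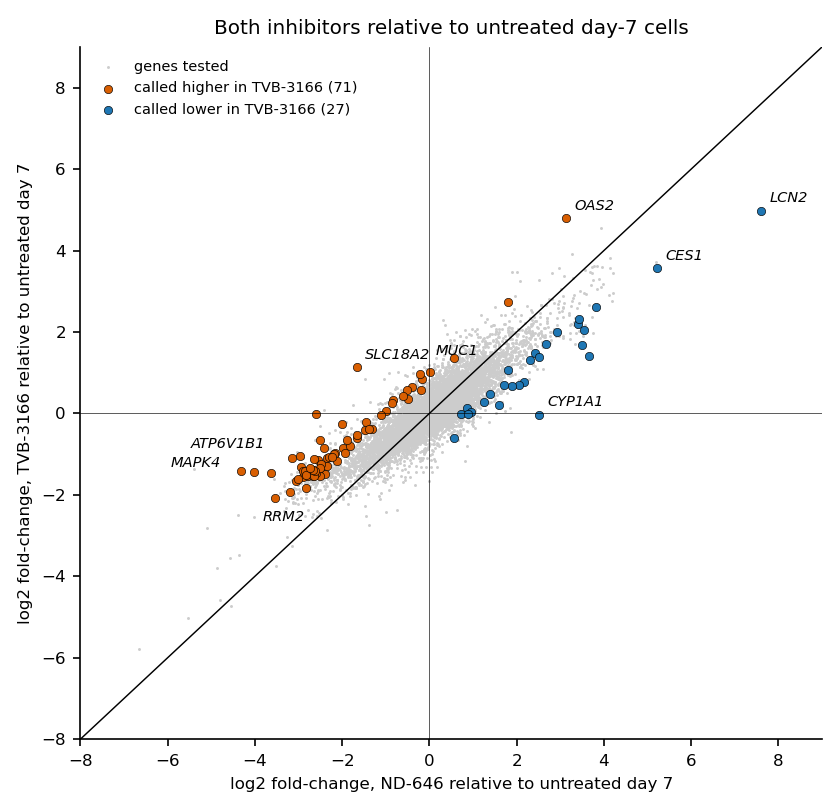
Log2 fold-change of each of the genes tested under ND-646 (horizontal) and TVB-3166 (vertical), both relative to the same 3 untreated day-7 libraries, with the line of equal change. The 71 genes called higher and the 27 called lower under TVB-3166 are marked. By group means of CPM, 56 of the 71 were below untreated day 7 under both inhibitors and 23 of the 27 above it under both. These counts were not taken from the plotted fold-changes.

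Genes of cell division were higher under TVB-3166. Of 39 genes of the spindle, kinetochore and mitotic kinases, 38 had a positive fold-change with a median of 1.13 (all genes tested, -0.01). 7 were called higher and none lower, 28 were called higher with the replicate block and 37 without ND-646 replicate 1, where the median was 1.26. The G2/M phase list behaved alike: 53 of 54 members were positive, the median was 1.05, and 11, 34 and 45 members were called higher in the same 3 fits. In both groups these genes stood below untreated cells. By library, the median of the spindle list relative to the untreated day-7 mean was -2.26, -2.87 and -2.40 (log2) under ND-646 and -1.17, -1.56 and -1.52 under TVB-3166, with 0.23, 0.21 and 0.30 on day 0.

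Among the named members, BUB1B, the checkpoint kinase that restrains the anaphase-promoting complex until chromosomes are attached, read 9.32, 8.67 and 12.3 CPM under ND-646 and 28.4, 24.2 and 23.0 CPM under TVB-3166. Every TVB-3166 library was above every ND-646 library, and all 6 were below the untreated day-7 libraries at 74.9, 73.0 and 77.3 CPM. The fold-change was 1.32 ± 0.18 (SE, adjusted p = 0.0404). KNL1, the kinetochore scaffold to which the checkpoint proteins bind, read 7.99, 9.23 and 11.1 CPM under ND-646 and 26.9, 20.5 and 26.5 CPM under TVB-3166 (1.39 ± 0.18, adjusted p = 0.0404). CENPE, a kinetochore motor, read 7.87, 7.56 and 11.2 CPM under ND-646 and 25.4, 21.6 and 21.8 CPM under TVB-3166 (1.37 ± 0.19, adjusted p = 0.0404). The TVB-3166 libraries were above the ND-646 libraries for each of these, without overlap. CCNA2, the cyclin of S phase and early mitosis, read 11.1, 9.26 and 11.8 CPM under ND-646 and 30.5, 23.1 and 21.9 CPM under TVB-3166, 2.35-fold higher (1.24 ± 0.18, adjusted p = 0.0404). SMC4, a core subunit of condensin, read 54.7, 64.4 and 71.8 CPM under ND-646 and 144, 129 and 121 CPM under TVB-3166 (1.05 ± 0.14, adjusted p = 0.0404). ECT2, the exchange factor that sets up the contractile ring, read 49.0, 58.7 and 74.5 CPM under ND-646 and 152, 129.9 and 133 CPM under TVB-3166 (1.19 ± 0.17, adjusted p = 0.0404), and DLGAP5, which stabilises kinetochore microtubules, read 7.91, 5.03 and 6.96 CPM under ND-646 and 17.1, 15.8 and 15.5 CPM under TVB-3166 (1.29 ± 0.19, adjusted p = 0.0404). These 3 genes were also below untreated day 7 in all 6 libraries, where SMC4 read 341, 303 and 330.0 CPM, ECT2 259.9, 273 and 281 CPM and DLGAP5 41.1, 41.9 and 43.8 CPM.

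The motors and microtubule binders with the highest fold-changes were KIF14 (1.63 ± 0.27, adjusted p = 0.0488), KIF18B (1.54 ± 0.20, adjusted p = 0.0404) and NUSAP1 (1.48 ± 0.22, adjusted p = 0.0404). NUSAP1, which bundles spindle microtubules, read 18.9, 11.5 and 18.9 CPM under ND-646, 54.5, 40.6 and 42.2 CPM under TVB-3166 and 129.7, 115 and 124 CPM in untreated day-7 cells, so that the inhibitor groups did not overlap with each other or with untreated cells. Some members passed only once the replicate block was added or the outlying library was left out. CCNB1, the mitotic cyclin, read 32.4, 17.2 and 21.1 CPM under ND-646 and 56.6, 44.3 and 44.4 CPM under TVB-3166, with an adjusted p of 0.0945 in all 6 libraries, 0.0223 with the block and 0.0009 without ND-646 replicate 1. CENPF, a kinetochore protein of the nuclear matrix, read 41.1, 29.2 and 45.2 CPM under ND-646 and 105, 72.1 and 86.5 CPM under TVB-3166 (adjusted p = 0.0507, and 0.0223 with the block), and KIF4A, a chromosome-bound motor, read 17.1, 9.16 and 13.8 CPM under ND-646 and 38.8, 26.3 and 29.2 CPM under TVB-3166 (adjusted p = 0.0709, and 0.0223 with the block). For all 3 the groups were separate, with replicate 1 the highest of its own group for CCNB1 and KIF4A under either inhibitor. MKI67, the proliferation marker, chosen after its values were seen, read 22.3, 29.2 and 47.6 CPM under ND-646 and 99.2, 68.3 and 86.9 CPM under TVB-3166, against 333, 236 and 238 CPM in untreated day-7 cells. Its fold-change was 1.36 ± 0.28 (adjusted p = 0.0804, and 0.00691 without ND-646 replicate 1).

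Genes of DNA replication differed in the same direction, with smaller list medians. The S phase list had 41 of 43 members positive with a median of 0.57. 2 were called higher, 5 with the block and 26 without ND-646 replicate 1, and none was called lower. Replication licensing and origin firing had 20 of 21 positive, a median of 0.50 and 1, 2 and 11 called higher, while deoxynucleotide synthesis had 8 of 9 positive, a median of 0.32 and 1, 2 and 4 called higher. RRM2, the regulated subunit of ribonucleotide reductase, read 33.3, 25.8 and 33.4 CPM under ND-646, 106, 70.9 and 76.4 CPM under TVB-3166 and 401, 294 and 378 CPM in untreated day-7 cells. The levels formed 3 separate ranges, and the fold-change between inhibitors was 1.46 ± 0.19 (adjusted p = 0.0404), 2.75-fold. CDC45, a component of the replicative helicase, read 3.19, 3.61 and 4.52 CPM under ND-646 and 9.46, 8.88 and 8.68 CPM under TVB-3166, against 36.2, 29.7 and 38.1 CPM untreated (1.25 ± 0.19, adjusted p = 0.0432). The library medians of the S phase list relative to untreated day 7 were -1.93, -1.95 and -1.95 under ND-646 and -1.28, -1.47 and -1.50 under TVB-3166.

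Upstream of S phase the difference was less uniform. Of 18 tested G1 cyclins, kinases, RB and E2F genes, 13 were positive (median 0.31), none was called and 1 was called with the block. The median was 0.15 without ND-646 replicate 1, with 2 called higher (E2F2 and E2F8) and 1 lower (CDK6, a kinase of G1, at -0.47). E2F8, a repressor of the E2F family that is itself an E2F target, read 1.86, 2.19 and 2.36 CPM under ND-646 and 7.07, 4.39 and 5.39 CPM under TVB-3166, separate in the 6 libraries, with an adjusted p of 0.0528 (0.0478 with the block). E2F2, an activator, read 2.36, 2.22 and 2.33 CPM under ND-646 and 5.42, 3.87 and 5.06 CPM under TVB-3166 (adjusted p = 0.0716, 0.0581 with the block and 0.015 without ND-646 replicate 1). Both were well below the untreated day-7 values of 20.5, 17.0 and 25.9 CPM for E2F8 and 30.1, 20.8 and 29.3 CPM for E2F2. The inhibitors of cyclin-dependent kinases showed no call in all 6 libraries. CDKN1A, which encodes p21, had fold-changes relative to untreated day 7 of 2.22 under ND-646 (adjusted p = 0.00237) and 1.79 under TVB-3166 (adjusted p = 6.13e-06), and -0.43 ± 0.33 between the inhibitors (adjusted p = 0.596). CDKN2C, which encodes p18, read 13.8, 8.46 and 11.3 CPM under ND-646 and 24.7, 18.7 and 19.6 CPM under TVB-3166 (adjusted p = 0.0948, and 0.031 with the block), and CDKN2B, which encodes p15, read 18.9, 25.4 and 26.8 CPM under ND-646 and 16.7, 20.1 and 22.3 CPM under TVB-3166 (adjusted p = 0.542).

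Joined without repeats, the 6 cell-cycle lists hold 152 of the 13662 genes tested, and 141 of the 152 were positive (median 0.75). They supplied 17 of the 71 genes called higher (23.9%) and none of the 27 called lower. With so few of the tested genes in these lists, none among 27 says little. Without ND-646 replicate 1 the lists supplied 95 of 829 called higher (11.5%) and 1 of 689 called lower (0.145%), in a fit of 13792 genes. None of the 6 list medians was negative in any setting run.

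**Figure D2:**
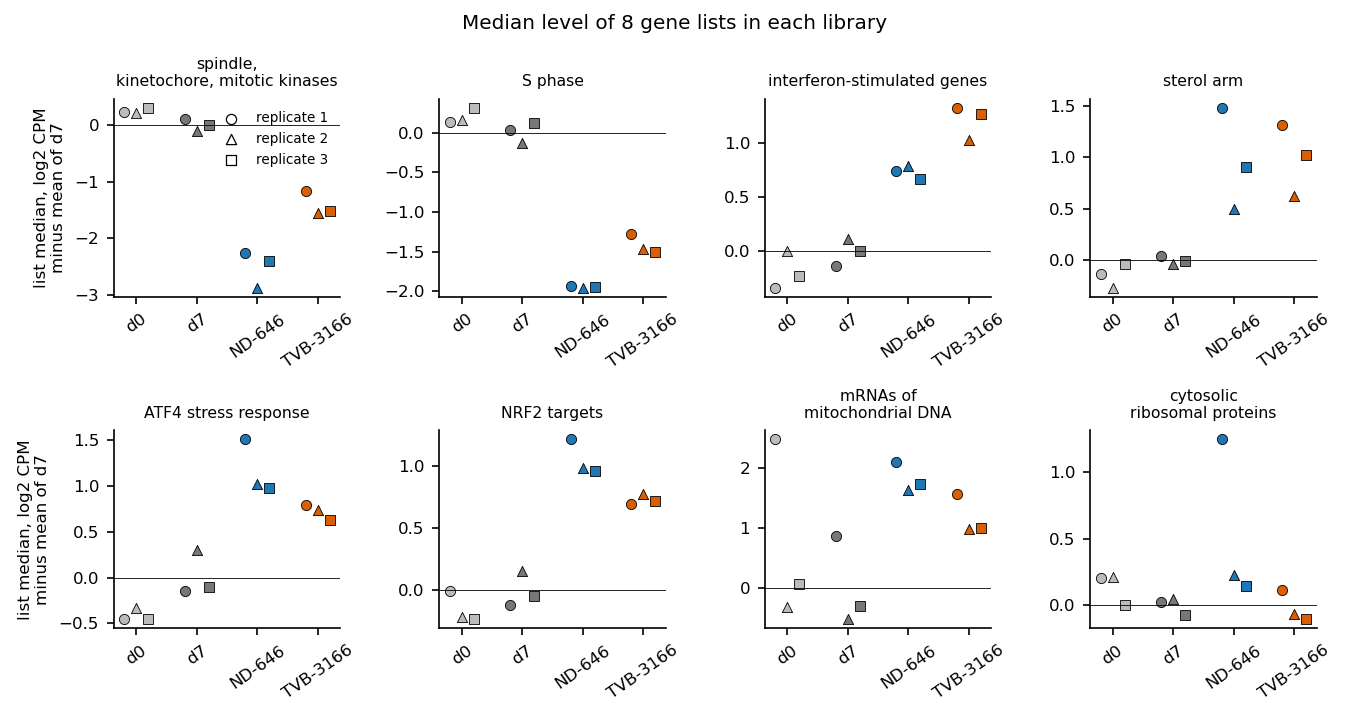
Median log2 CPM of the tested members of 8 gene lists in each library, minus their mean in untreated day-7 cells (d7), for untreated day 0 (d0), untreated day 7, ND-646 and TVB-3166, with a marker for each replicate number. The spindle list lies at -2.87 to -2.26 under ND-646 and -1.56 to -1.17 under TVB-3166, and the cytosolic ribosomal proteins lie at 1.25 in ND-646 replicate 1 alone.

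Interferon-stimulated genes formed the second group higher under TVB-3166. All 26 tested members of the list of 40 had a positive fold-change (median 0.43), with 12 separate between the groups. One was called higher, 3 with the block and 13 without ND-646 replicate 1, and none was called lower in any of the 3 fits. Here the comparison with untreated cells ran opposite to that of the mitotic genes, since both inhibitors stood above untreated day 7 (list medians 0.71 under ND-646 and 1.22 under TVB-3166) and TVB-3166 stood further above. OAS2, an oligoadenylate synthetase that senses double-stranded RNA (chromosome 12, 113416200 to 113449528, plus strand, GRCh37), read 6.01, 10.7 and 6.48 CPM under ND-646 and 22.3, 27.7 and 22.5 CPM under TVB-3166. Untreated cells held 0.514, 1.01 and 1.15 CPM on day 7 and 0.687, 0.679 and 0.746 CPM on day 0, so the ranges rose from untreated to ND-646 to TVB-3166 without overlap. The fold-change between inhibitors was 1.64 ± 0.24 (adjusted p = 0.0404), 3.12-fold. OAS1, of the same family, read 29.7, 28.5 and 24.5 CPM under ND-646 and 42.2, 45.2 and 40.6 CPM under TVB-3166, against 1.71, 4.25 and 2.59 CPM untreated. Its groups were separate but its adjusted p was 0.0697, with 0.0466 under the block and 0.00342 without ND-646 replicate 1. IFI6, an interferon-induced mitochondrial and endoplasmic reticulum protein whose promoter is shown above, read 18.4, 10.8 and 9.52 CPM under ND-646 and 28.1, 28.8 and 32.5 CPM under TVB-3166 (1.22 ± 0.24, adjusted p = 0.0703, and 0.0445 with the block). IRF9, the DNA-binding subunit of the interferon-activated factor ISGF3, read 25.5, 23.2 and 19.8 CPM under ND-646 and 35, 33.3 and 36.1 CPM under TVB-3166 (adjusted p = 0.0883, and 0.00354 without ND-646 replicate 1).

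Genes of antigen presentation and of NF-kB did not follow the interferon list. MHC class I presentation had 14 of 15 members negative (median -0.21) and none called. Without ND-646 replicate 1 its median was -0.33 with 1 called lower, 6.67% of the list against 5% of all genes in that fit. Of 13 NF-kB targets, 11 were negative (median -0.23) and none was called. The median was -0.16 without ND-646 replicate 1, with 2 called lower (ICAM1 and BIRC3), and -0.51 without ND-646 replicate 3. ICAM1, the adhesion ligand of leukocyte integrins, read 18.9, 15.5 and 15.9 CPM under ND-646 and 9.26, 9.67 and 8.15 CPM under TVB-3166, separate between groups, with an adjusted p of 0.0501 and of 0.0398 with the block. BIRC3, an inhibitor of apoptosis induced by NF-kB, read 16.2, 22.9 and 20.2 CPM under ND-646 and 13.9, 13.9 and 11.8 CPM under TVB-3166 (adjusted p = 0.178). Among 5 tested secreted factors (median -0.24, and -0.034 without ND-646 replicate 1) CSF1, the macrophage growth factor, was called lower at 29.9, 25 and 29.7 CPM under ND-646 and 13.7, 13.4 and 16.9 CPM under TVB-3166 (-0.94 ± 0.15, adjusted p = 0.0467), against 5.47, 5.87 and 4.32 CPM in untreated day-7 cells. CCL22, a chemokine for regulatory T cells, read 42.3, 26.5 and 24.5 CPM under ND-646 and 24, 25.7 and 25 CPM under TVB-3166 (adjusted p = 0.528), with 1.61, 2.18 and 1.5 CPM untreated, and its groups overlapped.

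The targets of the inhibitors themselves differed little in mRNA, with 1 exception. ACACA, the cytosolic ACC that supplies malonyl-CoA for lipogenesis, read 163, 209 and 281 CPM under ND-646 and 252, 181 and 238 CPM under TVB-3166 (0.04 ± 0.22, adjusted p = 0.949), with overlapping groups. FASN read 13926, 13869 and 16996 CPM under ND-646 and 14798, 11029 and 15506 CPM under TVB-3166 (-0.11 ± 0.21, adjusted p = 0.843), also overlapping, and was above the untreated day-7 values of 6165, 5555 and 5133 CPM under both inhibitors (log2 fold-changes 1.41 and 1.30, adjusted p = 0.00127 and 1.79e-05). ACACB, the ACC of the outer mitochondrial membrane whose malonyl-CoA restrains fatty acid oxidation, read 4.56, 8.57 and 10.2 CPM under ND-646 and 20.8, 22.9 and 25.3 CPM under TVB-3166. The groups were separate and both lay below the 65.3, 56.0 and 62.4 CPM of untreated day 7. The fold-change was 1.56 ± 0.28, 2.95-fold, with an adjusted p of 0.0538 in all 6 libraries, 0.0223 with the block and 0.000905 without ND-646 replicate 1. An inhibitor need not change the mRNA of its target, so these levels do not check the treatment.

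The list of fatty acid synthesis and malonyl-CoA genes, which includes these 3 targets, gave 15 tested members with 9 positive, a median of 0.05 and none called. Without ND-646 replicate 1 the median was 0.21, with 2 called higher (ACACB and SLC25A1, the mitochondrial citrate carrier) and 1 lower (MID1IP1). These were 13.3 and 6.67% of the list, against 6.01 and 5% of all genes in that fit. MID1IP1, which promotes polymerisation of ACC, read 185, 147 and 153 CPM under ND-646 and 112, 104 and 121 CPM under TVB-3166 (adjusted p = 0.116, and 0.0131 without ND-646 replicate 1), with 39.7, 40.4 and 38.5 CPM untreated. ACSS2, which makes acetyl-CoA from acetate, read 401, 195 and 280.0 CPM under ND-646 and 509.9, 275 and 409 CPM under TVB-3166 (adjusted p = 0.528), and its groups overlapped. Desaturases and elongases had 10 of 13 members negative (median -0.18) and none called. HACD2, a dehydratase of the elongation cycle, read 175, 205 and 207 CPM under ND-646 and 131, 153 and 151 CPM under TVB-3166 (adjusted p = 0.181), and FADS2, a front-end desaturase of polyunsaturated fatty acids, read 152, 84.0 and 133 CPM under ND-646 and 91.4, 51.8 and 83.0 CPM under TVB-3166 (adjusted p = 0.286, and 0.0311 with the block).

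Cholesterol synthesis stood above untreated cells under both inhibitors and had no gene called different between them in the 6 libraries. The mevalonate arm had list medians of 0.95 under ND-646 and 1.26 under TVB-3166 relative to untreated day 7, and the sterol arm 1.01 and 1.07. Between the inhibitors the medians were 0.13 over 9 genes and 0.06 over 12, and both were negative without ND-646 replicate 2 and without TVB-3166 replicate 1, the sterol median also without ND-646 replicate 3. Without ND-646 replicate 1 they were 0.61 and 0.39, with 0 and 2 genes called higher. HMGCS1, which condenses acetoacetyl-CoA to HMG-CoA, read 210.2, 127 and 201 CPM under ND-646 and 394, 209 and 282 CPM under TVB-3166 (0.72 ± 0.27, adjusted p = 0.271, and 0.0445 with the block). Replicate 1 was the highest and replicate 2 the lowest of both groups, so the groups overlapped while each TVB-3166 library exceeded the ND-646 library of its own number. The same order of replicates was seen in IDI1, an isomerase of the pathway, at 748, 401 and 576 CPM under ND-646 and 934, 589 and 692 CPM under TVB-3166 (adjusted p = 0.552, and 0.138 with the block). LSS, the lanosterol cyclase, read 235, 140.3 and 244 CPM under ND-646 and 303, 187 and 271 CPM under TVB-3166 (adjusted p = 0.624) and TM7SF2, a sterol reductase, 129, 57.0 and 74.9 CPM under ND-646 and 127, 89.7 and 109 CPM under TVB-3166 (adjusted p = 0.635, and 0.0159 without ND-646 replicate 1).

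Regulators that answer to sterol content had no call in the 6 libraries, and the same 2 members of the SREBP regulation list were called lower under TVB-3166 with the block and without ND-646 replicate 1. RNF145, a ubiquitin ligase of the endoplasmic reticulum induced through the liver X receptor (LXR), read 566, 444 and 539 CPM under ND-646 and 305, 309 and 340.2 CPM under TVB-3166, separate between groups (adjusted p = 0.0694, 0.0419 with the block and 0.00439 without ND-646 replicate 1). VLDLR, a lipoprotein receptor, read 66.3, 53.5 and 67.5 CPM under ND-646 and 35.2, 38.3 and 42.2 CPM under TVB-3166 (adjusted p = 0.0709, 0.0466 with the block and 0.00746 without ND-646 replicate 1). The remaining members of SREBP regulation and LDL uptake were not called in any of the 3 fits, and the list median was -0.07. Of 8 LXR receptors and targets 6 were negative (median -0.23) and none was called. The median was 0.02 without ND-646 replicate 1, yet 3 of the 8 were called lower, ABCA1, ABCG1 and MYLIP, a ubiquitin ligase for the LDL receptor (-0.34, adjusted p = 0.0253). ABCG1, a cholesterol exporter, read 296, 238 and 283 CPM under ND-646 and 179, 188 and 198 CPM under TVB-3166, against 43.2, 47.1 and 42.2 CPM untreated (adjusted p = 0.102), and ABCA1, the exporter to apolipoprotein A, read 7.29, 17.5 and 23.4 CPM under ND-646 and 9.14, 7.09 and 8.58 CPM under TVB-3166 (adjusted p = 0.292, and 0.00163 without ND-646 replicate 1). In ABCA1 the groups overlapped, with ND-646 replicate 1 below the other ND-646 libraries.

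Fatty acid oxidation, which malonyl-CoA is known to restrain, had 12 of 17 members positive with a median of 0.11 and none called, and 6 called higher and none lower without ND-646 replicate 1 (median 0.28). CPT1A, the carnitine palmitoyltransferase of most tissues, read 82.4, 122 and 111 CPM under ND-646 and 106, 114 and 121 CPM under TVB-3166 (adjusted p = 0.796), and was below the untreated day-7 values of 278, 268 and 278 CPM under both. HADH, a dehydrogenase of the oxidation spiral, read 68.3, 63.6 and 53.0 CPM under ND-646 and 108, 93.9 and 86.0 CPM under TVB-3166, separate between groups (adjusted p = 0.0932, 0.0419 with the block), and ETFDH, which passes its electrons to ubiquinone, read 28.6, 24.6 and 20.7 CPM under ND-646 and 29.5, 32.5 and 28.4 CPM under TVB-3166 (adjusted p = 0.399). PDK4, a kinase that shuts pyruvate dehydrogenase, read 1.16, 1.80 and 1.15 CPM under ND-646 and 0.549, 0.553 and 0.432 CPM under TVB-3166, lower under TVB-3166 in every library but not called (adjusted p = 0.0923, and 0.0201 without ND-646 replicate 1). The 11 tested PPAR receptors and targets had a median of -0.18 with none called (-0.057 without ND-646 replicate 1), and the 14 genes of pyruvate dehydrogenase and its regulators 0.19 with none called. PDK2, of the same family as PDK4, read 4.60, 3.85 and 3.68 CPM under ND-646 and 6.20, 5.34 and 5.99 CPM under TVB-3166 in the other direction (adjusted p = 0.234).

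Complex lipids showed no called gene in all 6 libraries, over 24 genes of triglyceride synthesis and lipid droplets (median -0.08), 26 of glycerophospholipids (-0.13) and 27 of sphingolipids (-0.10). Without ND-646 replicate 1 the 3 medians were -0.018, -0.036 and 0.023, and 1, 2 and 2 of their members were called higher and 2, 3 and 2 lower. These were 4.17, 7.69 and 7.41% of the lists called higher and 8.33, 11.5 and 7.41% called lower. Of all genes in that fit, 6.01% were called higher and 5% lower. GPAT3, which starts glycerolipid synthesis, read 18.8, 13.5 and 13.0 CPM under ND-646 and 7.88, 8.60 and 6.82 CPM under TVB-3166 (adjusted p = 0.0709, 0.0464 with the block), and AGPAT2, which adds the next acyl chain, read 79.2, 48.4 and 47.7 CPM under ND-646 and 36.6, 31.8 and 38.5 CPM under TVB-3166 (adjusted p = 0.185). Both were separate between the groups. CHKB, a choline kinase, read 18.9, 20.4 and 14.9 CPM under ND-646 and 30.9, 35.4 and 29.4 CPM under TVB-3166 (adjusted p = 0.0643, 0.0306 with the block), and PISD, which makes phosphatidylethanolamine in mitochondria, read 26.1, 33.4 and 39.7 CPM under ND-646 and 50.1, 53.2 and 53.6 CPM under TVB-3166 (adjusted p = 0.117). FA2H, which hydroxylates the acyl chain of sphingolipids, read 43.5, 31.6 and 34.7 CPM under ND-646 and 51.1, 49.3 and 49.2 CPM under TVB-3166 (adjusted p = 0.205) and SGMS1, a sphingomyelin synthase, 24, 24.1 and 24 CPM under ND-646 and 17.5, 20.5 and 19.2 CPM under TVB-3166 (adjusted p = 0.264). In glycolysis, 11 of 21 genes were positive (median 0.01) and none was called, with SLC16A3, a lactate exporter, at 463, 313 and 357 CPM under ND-646 and 258, 249 and 285 CPM under TVB-3166 (adjusted p = 0.211) and SLC16A1, of the same family, at 13.0, 15.9 and 12.7 CPM under ND-646 and 7.97, 11.5 and 8.75 CPM under TVB-3166 (adjusted p = 0.224).

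CYP1A1 had the lowest p-value of the comparison. The gene (chromosome 15, 75011883 to 75017877, minus strand, GRCh37) is the classical target of the aryl hydrocarbon receptor, and it read 865, 1193 and 851 CPM under ND-646 and 132, 188 and 179 CPM under TVB-3166. The ND-646 libraries lay far above all TVB-3166 libraries, 5.82-fold by the fitted values (-2.54 ± 0.21, adjusted p = 0.0282). Untreated cells varied widely, with 52.6, 363 and 96.0 CPM on day 7 and 59.4, 1.51 and 1.41 CPM on day 0, so that the TVB-3166 libraries lay within the untreated day-7 range. In the joint fit of all 24 libraries, where 1268 genes passed, CYP1A1 did not (log2 fold-change -2.55, adjusted p = 0.0592). CYP1B1, a second cytochrome of this receptor, read 787, 1612 and 1147 CPM under ND-646 and 409, 666 and 526 CPM under TVB-3166, separate between groups (-1.15 ± 0.29, adjusted p = 0.116, 0.0223 with the block). Over the 7 tested members of the list 6 were negative (median -0.38), 1 was called lower, 2 with the block and 4 without ND-646 replicate 1, among them TIPARP (-0.55, adjusted p = 0.0186) and AHR itself (-0.32, adjusted p = 0.0415).

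LCN2, which encodes the siderophore-binding protein lipocalin-2 (chromosome 9, 130911350 to 130915732, plus strand, GRCh37), had the lowest fold-change. It read 140.3, 115 and 92.8 CPM under ND-646 and 11.8, 22.6 and 21.4 CPM under TVB-3166, against 0.364, 1.17 and 0.259 CPM in untreated day-7 cells. All 6 inhibitor libraries were thus far above untreated cells, and those of TVB-3166 less so (-2.64 ± 0.27, adjusted p = 0.035). PANX2, a pannexin channel, read 12.5, 8.78 and 10.1 CPM under ND-646 and 2.16, 2.49 and 1.93 CPM under TVB-3166 (-2.24 ± 0.21, adjusted p = 0.035), WNT5B, a Wnt ligand, 6.54, 5.06 and 4.66 CPM under ND-646 and 1.55, 1.60 and 1.46 CPM under TVB-3166 (-1.81 ± 0.22, adjusted p = 0.0404), and CES1, a carboxylesterase that hydrolyses lipid esters, 27.0, 17.4 and 19.2 CPM under ND-646 and 6.42, 7.89 and 5.69 CPM under TVB-3166 (-1.66 ± 0.21, adjusted p = 0.0404). Each was near or below 1 CPM in untreated day-7 cells. CCN2, a matricellular protein known as a target of YAP, read 80.4, 52.9 and 50.2 CPM under ND-646 and 21.9, 25.2 and 23.3 CPM under TVB-3166 (-1.38 ± 0.19, adjusted p = 0.0404), and DHRS3, a retinal reductase induced by retinoic acid, 308, 268 and 234 CPM under ND-646 and 105, 119 and 121 CPM under TVB-3166 (-1.23 ± 0.14, adjusted p = 0.0354). CASP4, an inflammatory caspase that senses lipopolysaccharide, read 53.6, 33.0 and 37.7 CPM under ND-646 and 18.7, 17.7 and 17.1 CPM under TVB-3166 (-1.21 ± 0.19, adjusted p = 0.045), and CLGN, a testis-type chaperone of the endoplasmic reticulum, 222, 171 and 166 CPM under ND-646 and 63.7, 95.9 and 78.7 CPM under TVB-3166 (-1.23 ± 0.18, adjusted p = 0.0404). The remaining named genes of this direction were EPHB2, a receptor of ephrins (-1.36 ± 0.20), KLHDC7B (-1.48 ± 0.24) and BTN3A3, a butyrophilin (-1.39 ± 0.23), with adjusted p-values of 0.0404, 0.0488 and 0.0488.

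The highest fold-changes in the other direction belonged to genes of diverse function at low or moderate level. MAPK4, an atypical mitogen-activated kinase, read 1.91, 0.555 and 1.92 CPM under ND-646 and 15, 6.91 and 10.4 CPM under TVB-3166 (2.89 ± 0.47, adjusted p = 0.0488), and LRRK2, a kinase of endolysosomal membranes, 0.331, 0.659 and 0.810 CPM under ND-646 and 3.20, 2.33 and 2.63 CPM under TVB-3166 (2.16 ± 0.34, adjusted p = 0.0467). Both were lower in all 6 libraries than in untreated day-7 cells, which held 39.4, 19.1 and 28.5 CPM of MAPK4 and 9.11, 6.49 and 7.00 CPM of LRRK2. SLC18A2, the vesicular monoamine transporter, took another course. It read 0.663, 0.347 and 0.777 CPM under ND-646 and 5.58, 2.86 and 4.02 CPM under TVB-3166 around an untreated day-7 level of 1.76, 2.41 and 1.53 CPM, lower than untreated under ND-646 (log2 fold-change -1.67, adjusted p = 0.00871) and higher under TVB-3166 (1.13, adjusted p = 0.00478). ATP6V1B1, a subunit of the vacuolar proton pump in acid-secreting epithelia, read 11.3, 6.90 and 6.85 CPM under ND-646 and 30.6, 31.4 and 32.0 CPM under TVB-3166, against 71.1, 64.9 and 60.0 CPM untreated (1.92 ± 0.21, adjusted p = 0.035). MAB21L4 read 14.5, 10.4 and 13.4 CPM under ND-646 and 49.7, 36.4 and 40.6 CPM under TVB-3166 (1.73 ± 0.18, adjusted p = 0.035), with 60.3, 41.5 and 50.3 CPM untreated, so only ND-646 was called different from untreated (adjusted p = 0.00022, against 0.152 for TVB-3166). REXO5, an exonuclease, had 1.54 ± 0.26 (adjusted p = 0.0493). HNRNPA1P21 (2.59 ± 0.39, adjusted p = 0.0404) is a pseudogene whose reads may belong to its parent gene, so its value is uncertain.

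Mucins and other epithelial products differed in both directions. MUC1, the transmembrane mucin of luminal epithelium, read 122, 109.8 and 94.7 CPM under ND-646 and 216, 217 and 225 CPM under TVB-3166, and the ND-646 libraries covered the untreated day-7 range of 115, 108 and 101 CPM (1.02 ± 0.13, adjusted p = 0.0404). MUC5B, a secreted gel-forming mucin, read 2.03, 1.84 and 3.31 CPM under ND-646 and 10.5, 6.79 and 9.05 CPM under TVB-3166, against 18.8, 10.6 and 11.7 CPM untreated (1.87 ± 0.29, adjusted p = 0.0435). In the list of epithelial defence and surface antigens 1 of 16 members was called higher (MUC1) and 1 lower (LCN2), and 3 and 4 without ND-646 replicate 1, with a median of -0.06 over all and 0.086 without it. S100P, a calcium-binding protein, read 1262, 413 and 492 CPM under ND-646 and 357, 331 and 347 CPM under TVB-3166. Its adjusted p was 0.262, and its fold-change of -1.06 ± 0.39 became -0.39 without ND-646 replicate 1. CEACAM5, the carcinoembryonic antigen, read 47.4, 58.1 and 61.8 CPM under ND-646 and 44.4, 50.4 and 56.6 CPM under TVB-3166 with overlap (adjusted p = 0.708), against 4.37, 4.92 and 2.94 CPM untreated.

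**Figure D3:**
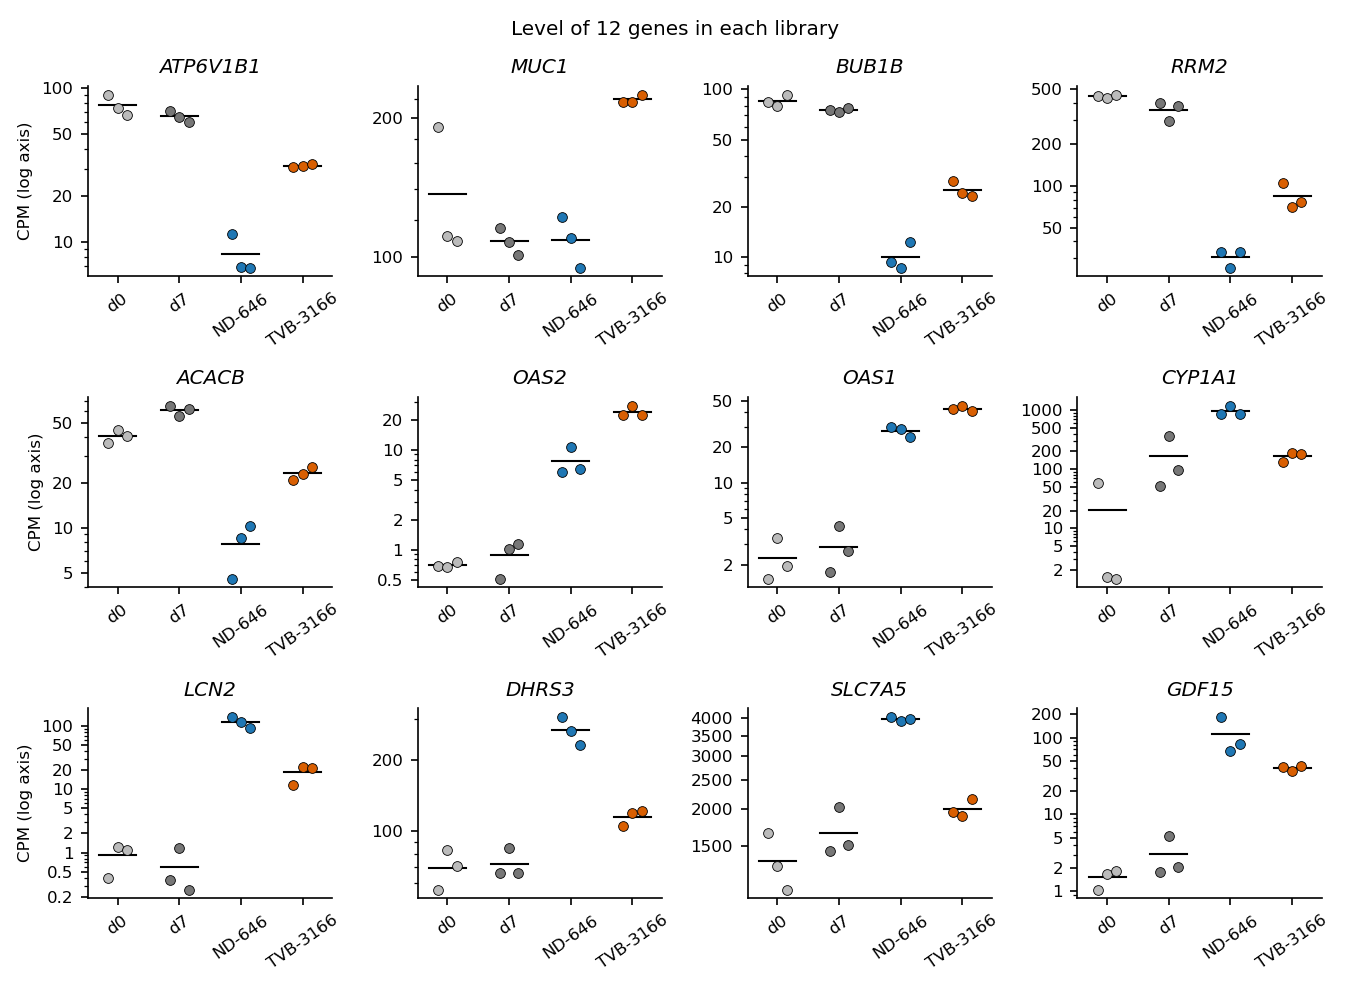
Level of 12 genes in CPM (log axis) in each library of untreated day 0 (d0), untreated day 7 (d7), ND-646 and TVB-3166, with the group mean as a bar. The 2 inhibitor groups do not overlap in any of the 12 panels, with TVB-3166 above ND-646 in the first 7 and below it in the last 5.

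Stress genes were mostly lower under TVB-3166 than under ND-646, with few past the threshold. In the ATF4 response 22 of 25 genes were negative (median -0.42), 1 was called lower, 2 with the block, and 9 without ND-646 replicate 1, when 1 was called higher. Relative to untreated day 7 the list medians were 1.12 under ND-646 and 0.69 under TVB-3166. SLC7A5, the light chain of the leucine transporter (chromosome 16, 87863629 to 87903113, minus strand, GRCh37), read 4048, 3919 and 3979 CPM under ND-646 and 1951, 1899 and 2162 CPM under TVB-3166. The ND-646 libraries were 1.98-fold higher and lay close together (-0.99 ± 0.14, adjusted p = 0.0404), whereas TVB-3166 was not called different from untreated day 7 (log2 fold-change 0.27, adjusted p = 0.0981). NIBAN1, induced by amino acid and endoplasmic reticulum stress, read 46.7, 76.6 and 73.7 CPM under ND-646 and 20.8, 32.7 and 27.6 CPM under TVB-3166 (adjusted p = 0.0583, 0.0223 with the block). GDF15, the stress cytokine, read 187, 66.9 and 83.2 CPM under ND-646 and 41.0, 36.5 and 42.2 CPM under TVB-3166 with 1.80, 5.31 and 2.08 CPM untreated. ND-646 replicate 1 held the highest value, and the fold-change of -1.48 ± 0.35 (adjusted p = 0.103) became -0.91 (adjusted p = 0.0015) without it.

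All 16 tested NRF2 targets, the genes of the antioxidant response, were negative (median -0.35, and -0.25 without ND-646 replicate 1). None was called in all 6 libraries, 1 with the block and 6 without ND-646 replicate 1. TXNRD1, the cytosolic thioredoxin reductase, read 1788, 2043 and 2009 CPM under ND-646 and 1255, 1289 and 1246 CPM under TVB-3166, separate between groups (adjusted p = 0.086, 0.0498 with the block), and SLC7A11, the cystine importer, read 121, 126 and 166 CPM under ND-646 and 93.3, 78.4 and 87.6 CPM under TVB-3166 (adjusted p = 0.0988). The unfolded protein response had 14 of 18 genes negative (median -0.23) and none called, with 2 called higher and 3 lower without ND-646 replicate 1. These were 11.1 and 16.7% of the list, against 6.01 and 5% of all genes in that fit. ATF6, a sensor of the endoplasmic reticulum, read 176, 176 and 173 CPM under ND-646 and 133, 149.6 and 144 CPM under TVB-3166 (adjusted p = 0.249) and HSPA5, its chaperone, 2098, 1365 and 1328 CPM under ND-646 and 1003, 1152 and 1126 CPM under TVB-3166 (adjusted p = 0.264). Of 28 lysosomal genes 25 were negative, yet the median of -0.15 became -0.03 without ND-646 replicate 1. CD63, a tetraspanin of late endosomes, read 856, 422 and 456 CPM under ND-646 and 329.9, 331 and 338 CPM under TVB-3166 (adjusted p = 0.218), with the first ND-646 library well above the rest. In the BCL-2 family, 7 of 14 genes were positive and none was called. BIK, a pro-apoptotic member, read 10.5, 10.0 and 10.3 CPM under ND-646 and 16.2, 15.7 and 13.8 CPM under TVB-3166 (adjusted p = 0.104) and BMF, another, 65.4, 106 and 91.9 CPM under ND-646 and 53.7, 70.5 and 62.1 CPM under TVB-3166 (adjusted p = 0.29).

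Ribosomal protein mRNAs moved with the outlying library, while mitochondrial mRNAs had a lower median under TVB-3166 with or without it. Of 83 cytosolic ribosomal protein genes 80 were negative with a median of -0.66, none was called, and without ND-646 replicate 1 the median was -0.22 and 13 were called lower. Their library medians relative to untreated day 7 were 1.25, 0.23 and 0.15 under ND-646 and 0.12, -0.07 and -0.10 under TVB-3166, so that replicate 1 alone lay far from the rest. RPL13 read 2345, 1213 and 985 CPM under ND-646 and 897, 783 and 766 CPM under TVB-3166 (adjusted p = 0.234), and RPS20 740.1, 368 and 325 CPM under ND-646 and 286, 262 and 240.2 CPM under TVB-3166 (adjusted p = 0.234). Ribosome biogenesis factors, by contrast, had a median of -0.04 over 29 genes, with RRP12 at 45.3, 41.0 and 40.6 CPM under ND-646 and 35.1, 34.8 and 37.5 CPM under TVB-3166 (adjusted p = 0.382) and FBL at 143, 81.6 and 73.7 CPM under ND-646 and 72.8, 70.3 and 69.4 CPM under TVB-3166 (adjusted p = 0.392). All 13 mRNAs of mitochondrial DNA were negative (median -0.61, and -0.42 without ND-646 replicate 1). None was called in all 6 libraries, 6 were called lower with the block and 4 without that library. The share of all counts in mitochondrial genes was 5.94, 5.36 and 5.19% under ND-646 and 4.67, 3.67 and 3.46% under TVB-3166, and among untreated libraries it ran from 1.22 to 8.01%. COX2, a subunit of cytochrome oxidase encoded there, read 11427, 6002 and 6209 CPM under ND-646 and 4606, 3480.2 and 3478 CPM under TVB-3166 (adjusted p = 0.152, 0.0306 with the block), and ND6, of complex I, 438, 339 and 324 CPM under ND-646 and 254, 178 and 206 CPM under TVB-3166 (adjusted p = 0.0967, 0.0284 with the block). In both groups replicate 1 held the highest share. The part of RNA composition in the other results of that library was not tested.

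Among 26 tested genes that the study singled out, 2 were called higher (OAS2 and GLDC) and 1 lower (LCN2), and 5 and 1 with the block. That list was chosen on these same libraries and is not independent evidence of a direction. GLDC, the decarboxylase of the glycine cleavage system, read 7.5, 8.08 and 9.89 CPM under ND-646 and 17.9, 16 and 16.8 CPM under TVB-3166, against 59.3, 60.5 and 60.2 CPM in untreated day-7 cells (0.99 ± 0.16, adjusted p = 0.0483). KITLG, the ligand of the KIT receptor, read 59.2, 88.7 and 80.4 CPM under ND-646 and 153, 148 and 144 CPM under TVB-3166, against 454, 493 and 487 CPM (adjusted p = 0.0501, 0.0364 with the block). Both genes lay in 3 separate ranges, untreated highest and ND-646 lowest. Several genes far from untreated under both inhibitors were not called between them. H19, an imprinted non-coding RNA, read 0.704, 0.347 and 0.540 CPM under ND-646 and 0.775, 1.29 and 0.798 CPM under TVB-3166, against 62.7, 39.3 and 58.1 CPM untreated (adjusted p = 0.332 between inhibitors). GJA5, a connexin, read 0.621, 0.902 and 0.945 CPM under ND-646 and 1.39, 1.35 and 0.765 CPM under TVB-3166, against 35.3, 46.9 and 33.3 CPM (adjusted p = 0.538), and ANGPTL4, an inhibitor of lipoprotein lipase, 0.456, 0.382 and 0.405 CPM under ND-646 and 0.323, 0.461 and 0.299 CPM under TVB-3166, against 11.2, 9.90 and 8.10 CPM (adjusted p = 0.843). MYEOV read 40.0, 39.9 and 40.4 CPM under ND-646 and 30.7, 32.2 and 29.3 CPM under TVB-3166, against 4.05, 5.76 and 4.41 CPM (adjusted p = 0.176, and 0.0223 without ND-646 replicate 1), and CAPN8, a calpain, 6.13, 5.58 and 10.3 CPM under ND-646 and 3.97, 4.64 and 6.39 CPM under TVB-3166, against 0.472, 0.308 and 0.461 CPM (adjusted p = 0.432). CCDC3, SDR16C5, ST6GALNAC2, PDP1, CILP2, FSD1, MED12L and GPCPD1 had adjusted p-values from 0.346 to 0.876, and OLAH and SLC25A34 fell under the filter on low counts in the comparison of the inhibitors.

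The replicate block and the fit without ND-646 replicate 1 added genes that were separate between groups in all 6 libraries. With the block, RIPOR3 (21.7, 12.3 and 23.6 CPM under ND-646 and 47.1, 37.7 and 52.3 CPM under TVB-3166, adjusted p = 0.0223), AKR7A3, an aldehyde reductase (21.3, 14.8 and 13.5 CPM under ND-646 and 41.9, 31.4 and 32.3 CPM under TVB-3166, adjusted p = 0.0223) and TARP (27.8, 11.2 and 13.8 CPM under ND-646 and 66.3, 40.5 and 36.7 CPM under TVB-3166, adjusted p = 0.0223) were higher under TVB-3166. TARP lies within the locus of a T-cell receptor chain, and its reads may be shared with it. Lower under TVB-3166 with the block were CAV1, the coat protein of caveolae (25.4, 28.2 and 26.1 CPM under ND-646 and 10.3, 16.2 and 12.9 CPM under TVB-3166, adjusted p = 0.0265), TRIM16L (58.4, 47.5 and 43.9 CPM under ND-646 and 30.4, 27.0 and 24.7 CPM under TVB-3166, adjusted p = 0.0223) and the pseudogene CYP2T1P (10.3, 13.6 and 6.92 CPM under ND-646 and 3.42, 5.31 and 2.83 CPM under TVB-3166, adjusted p = 0.0223). Without ND-646 replicate 1, SRARP, a steroid receptor-associated protein (53.1, 28.1 and 33.2 CPM under ND-646 and 85.0, 74.9 and 72.5 CPM under TVB-3166, adjusted p = 0.000304) and ADORA2A, an adenosine receptor (153, 88.9 and 86.0 CPM under ND-646 and 192, 160.0 and 174 CPM under TVB-3166, adjusted p = 0.000506) were higher under TVB-3166. TTYH3 (37.3, 43.9 and 48.9 CPM under ND-646 and 26.5, 27.2 and 28.5 CPM under TVB-3166, adjusted p = 0.00154) was lower. In the fit of all 6 libraries without the block, the adjusted p of these 9 genes ran from 0.0515 to 0.218.

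**Figure D4:**
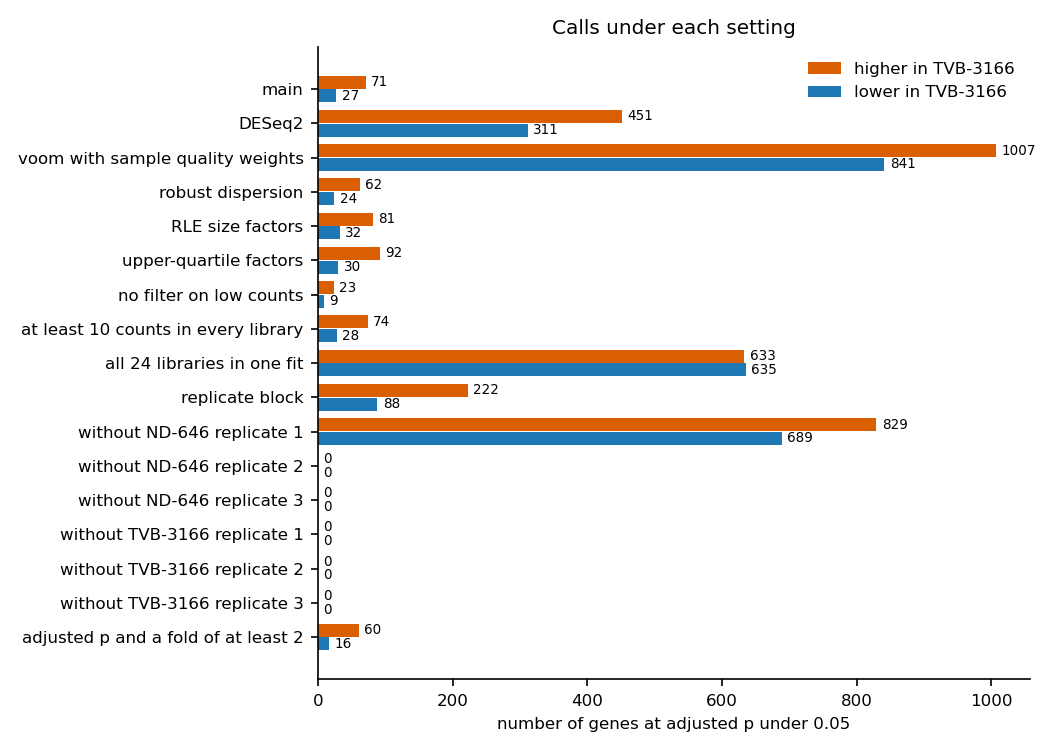
Number of genes higher (upper bar) and lower (lower bar) under TVB-3166 at an adjusted p under 0.05 in each fit, with bars from 0. The numbers run from 0 without any 1 of 5 libraries to 829 higher and 689 lower without ND-646 replicate 1 and 1007 and 841 with library weights.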

How the data were processed

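mRNA sequencing was performed in 24 SKBr3 libraries, 6 of which are compared here. Per the labels, libraries were made with a stranded mRNA kit, whereas the study's methods name a stranded total RNA kit; the strand setting of the counting is not given in the sources used here. The submitters' processing notes name HISAT2, StringTie, DESeq2 and build GRCh37. The authors deposited 1 table of raw read counts for 14493 genes, in which the lowest count is 1, so genes at 0 in a library are not listed. Overlapping and antisense genes may share reads.

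From the deposited counts, genes passing filterByExpr of edgeR 4.0.16 were scaled by TMM and tested with its quasi-likelihood test (R 4.3.3), TVB-3166 against ND-646, with Benjamini-Hochberg adjustment over 13662 genes. Each inhibitor was also tested against untreated day-7 and day-0 cells in separate fits. Alternatives were DESeq2 1.42.0, limma 3.58.1 voom with quality weights, robust dispersion, other scalings, no filter, a minimum count of 10 throughout, a joint fit of all 24 libraries, a replicate block, and leaving out each library. The fit was also run on simulated counts with known changes. These held no outlying library and no replicate effect, so they do not bear on calls that depend on either. Deviations from group means correlated between same-numbered libraries at r = 0.412, 0.252 and 0.334 over genes, each above 0.1, and between other numbers at -0.347 to 0.139. Replicate number was accordingly treated as a possible pairing. The fit that defines the called genes nevertheless holds no replicate term, and results with the block are given beside it. Deviations from a group mean cancel out within the group. The lower values between other numbers therefore follow in part from those between same numbers and are not separate evidence of pairing.

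Named genes were, per direction, the 12 with the largest fold-change among those called, separate in every library and at 1 CPM or more in a group; up to 4 called members of each list, or the 2 with the smallest p; the drug targets; genes singled out by the study; and up to 5 per direction called only with the block or only without ND-646 replicate 1. S and G2/M lists came from Seurat 5.3.0. The comparison, lists and rules were chosen with earlier results of these data known. Some genes that the rule names are not reported here. Gene positions are from GENCODE on GRCh37, and promoters from RefSeq on GRCh38.p14, the only use of that build.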

Additional observations from a re-analysis of the deposited data

How the results depend on the processing

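Calls at an adjusted p under 0.05 depended on the fit. The 71 genes higher and 27 lower under TVB-3166 became 451 and 311 with DESeq2, 1007 and 841 with limma voom and library quality weights, 633 and 635 with all 24 libraries in 1 fit, and 222 and 88 with the replicate block, in which the replicate number is a term. They became 23 and 9 with no filter on low counts, and 16 of the 27 lower genes also had a fold-change of at least 2. Leaving out 1 library at a time gave 0 to 829 higher and 0 to 689 lower: the upper values are those without ND-646 replicate 1, and without any other library edgeR called none (lowest adjusted p 0.0575 to 0.152, with 1194 to 2230 genes at an unadjusted p under 0.05). At a fold-change of at least 2 with raw p under 0.05, leaving out 1 library gave 258 to 417 genes higher and 116 to 235 lower (214 and 235 without ND-646 replicates 2 and 3), and a fold of at least 1.5 gave 659 and 495. The cause was not tested. Of the 98 called genes, 98 were called in the same direction with the block and 98 without ND-646 replicate 1, 97 by DESeq2 and 98 by limma, and all kept their sign in each setting in which they were tested. The block ended no call. Leaving out 1 library at a time, ACACA ran from -0.13 to 0.27, FASN from -0.21 to 0.0308 and the sphingolipid median from -0.12 to 0.0227. ACACA changed sign to -0.11 with library weights and to -0.13, -0.06 and -0.0047 without ND-646 replicate 1, TVB-3166 replicate 1 and TVB-3166 replicate 3, FASN to 0.031 without TVB-3166 replicate 2, and the sphingolipid median to 0.0227 without ND-646 replicate 1. With 3 libraries a group, genes near the floor of the table are the least precise.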

Other observations

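Further called genes lay outside the gene lists and are given as values, chosen after their values were seen. Both mitochondrial enzymes that oxidise proline to glutamate were higher under TVB-3166. PRODH, the proline dehydrogenase, read 45.6, 29.8 and 34.2 CPM under ND-646 and 76.4, 69.1 and 78.4 CPM under TVB-3166 (1.04 ± 0.17, adjusted p = 0.0488), and ALDH4A1, which completes the pathway, read 54.6, 43.5 and 43.5 CPM under ND-646 and 111, 90.8 and 90.9 CPM under TVB-3166 (1.05 ± 0.15, adjusted p = 0.0404). In untreated day-7 cells PRODH read 47.8, 47.6 and 48.4 CPM and ALDH4A1 143, 124 and 125 CPM, so PRODH was above untreated only under TVB-3166 and ALDH4A1 was below it under both. ABCC11, an apocrine transporter, read 128, 160.4 and 169 CPM under ND-646 and 278, 299.7 and 299 CPM under TVB-3166 (0.94 ± 0.14, adjusted p = 0.0404), with 38.5, 58.9 and 33.8 CPM untreated. AQP3, the aquaglyceroporin, read 220.2, 177 and 168 CPM under ND-646 and 358, 358 and 361 CPM under TVB-3166 (0.93 ± 0.13, adjusted p = 0.0404) with 508, 412 and 493 CPM untreated, and FGFR3, a growth factor receptor, read 10.0, 9.50 and 12.4 CPM under ND-646 and 24.5, 21.7 and 24.2 CPM under TVB-3166 (1.14 ± 0.15, adjusted p = 0.0404) with 50.1, 30.0 and 46.4 CPM untreated. PXMP4, a peroxisomal membrane protein, read 50.8, 50.7 and 51.1 CPM under ND-646 and 115, 99.0 and 98.4 CPM under TVB-3166 (1.04 ± 0.12, adjusted p = 0.0354). CREB3L1, a membrane-bound transcription factor, read 32.9, 32.6 and 27.4 CPM under ND-646 and 53.6, 54.3 and 54.3 CPM under TVB-3166 (0.81 ± 0.12, adjusted p = 0.0404) against 23.5, 21.6 and 17.7 CPM untreated.

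Lower under TVB-3166 were KDELR3, a retrieval receptor of the endoplasmic reticulum, at 12.6, 12.4 and 10.3 CPM under ND-646 and 4.71, 6.23 and 5.16 CPM under TVB-3166 (-1.13 ± 0.18, adjusted p = 0.045), and ADGRF1, an adhesion receptor, at 138, 169 and 158 CPM under ND-646 and 58.8, 81.9 and 74.7 CPM under TVB-3166 (-1.11 ± 0.16, adjusted p = 0.0404). VSIR, the immune checkpoint VISTA, read 28.2, 26.3 and 22.9 CPM under ND-646 and 13.0, 13.8 and 13.6 CPM under TVB-3166 (-0.93 ± 0.13, adjusted p = 0.0404) against 2.68, 4.11 and 3.46 CPM in untreated day-7 cells. WLS, the carrier of Wnt ligands, read 81.0, 83.1 and 72.9 CPM under ND-646 and 44.5, 48.2 and 50.6 CPM under TVB-3166 (-0.72 ± 0.12, adjusted p = 0.0473), and ORAI2, a calcium channel subunit, read 26.7, 27.5 and 30.6 CPM under ND-646 and 13.4, 16.2 and 15.2 CPM under TVB-3166 (-0.92 ± 0.13, adjusted p = 0.0404). In KDELR3, ADGRF1 and VSIR both inhibitors stood above untreated cells, while the TVB-3166 libraries of ORAI2 lay within or next to the untreated day-7 range of 13.1, 14.5 and 16.1 CPM.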
